A study of Mus musculus with 9 samples.

Results

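Glycolysis and the citric acid cycle were followed through 41 genes in mouse granulosa cells, the somatic cells that line the ovarian follicle and surround the oocyte. The genes were taken by symbol from their place in the pathway: 21 code for enzymes and regulators of glycolysis, 6 for the entry of pyruvate into the cycle and 14 for cycle enzymes. All 41 were found among the 25059 gene identifiers of the deposited tables. The study measured RNA in 9 libraries, 3 at each of 0, 1 and 6 h after human chorionic gonadotropin (hCG), a hormone that acts on the luteinizing hormone receptor and is used to start ovulation. The cells came from ovaries of mice of the outbred Kunming stock at postnatal day 21. Every group had received 5 IU of pregnant mare serum gonadotropin (PMSG), which drives follicle growth, 48 h earlier. The 0 h libraries are labelled with PMSG alone, and the 1 h and 6 h libraries were taken after a further 5 IU of hCG. Whether replicate libraries stem from different mice is not stated in any label. Each p-value therefore sets a difference of group means against the spread among libraries, and that spread may be only technical. Time after hCG and time of day cannot be told apart, since no library from untreated mice at 1 or 6 h was analysed here.

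Glycolysis splits glucose into pyruvate in the cytosol, and lactate dehydrogenase turns pyruvate into lactate. The pyruvate dehydrogenase complex instead turns pyruvate into acetyl-CoA in the mitochondrion, where the citric acid cycle oxidizes it and supplies electrons to the respiratory chain. Granulosa and cumulus cells are known to pass pyruvate and lactate to the oocyte, which makes little use of glucose itself.

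Levels are given as FPKM, fragments scaled to transcript length and to the mapped fragments of the library, summed over all deposited rows of a gene. FPKM is a share of each library, so in bulk RNA fewer cells of a type and less RNA per cell cannot be told apart. Changes are differences in log2(FPKM + 1) between group means, with the standard error (SE) and the adjusted p of limma, a linear-model test fitted to all 14535 genes that passed a filter on low values. A gene was called where the Benjamini-Hochberg adjusted p was below 0.05. All 41 genes passed the filter, which asked for 1 FPKM in 3 libraries, although Eno2 was below 1 FPKM in 2 libraries and Ogdhl in 2.

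At 6 h genes of the pathway had moved in both directions. Pfkfb4, Eno2 and Pfkfb3 rose, Ogdhl, Pdk1, Pfkm, Aldoc and Pdk2 fell by more than 1 on the log2 scale, and the abundant Gapdh, Ldha and Pkm were not called. Against 0 h, 24 of the 41 genes were called, 5 higher and 19 lower, which is 58.5% of them. Over all genes tested 56.6% were called in this comparison, 28.8% higher and 27.9% lower, so the share called was near the background while most of the calls among the 41 pointed down. For 10 of the 41 genes all 6 h libraries lay above all 0 h libraries (32.9% of all genes tested), and for 21 they lay below (32.1% of all). At 1 h 3 of the 41 genes were called, which were Pfkfb2 and Pfkfb3 higher and Pdk1 lower. Over all genes tested 15.7% were called at 1 h, 9.68% higher and 5.98% lower. All 1 h libraries lay above all 0 h libraries for 6 of the 41 genes (18.3% of all genes tested) and below for 3 (17.2%).

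**Figure D1:**
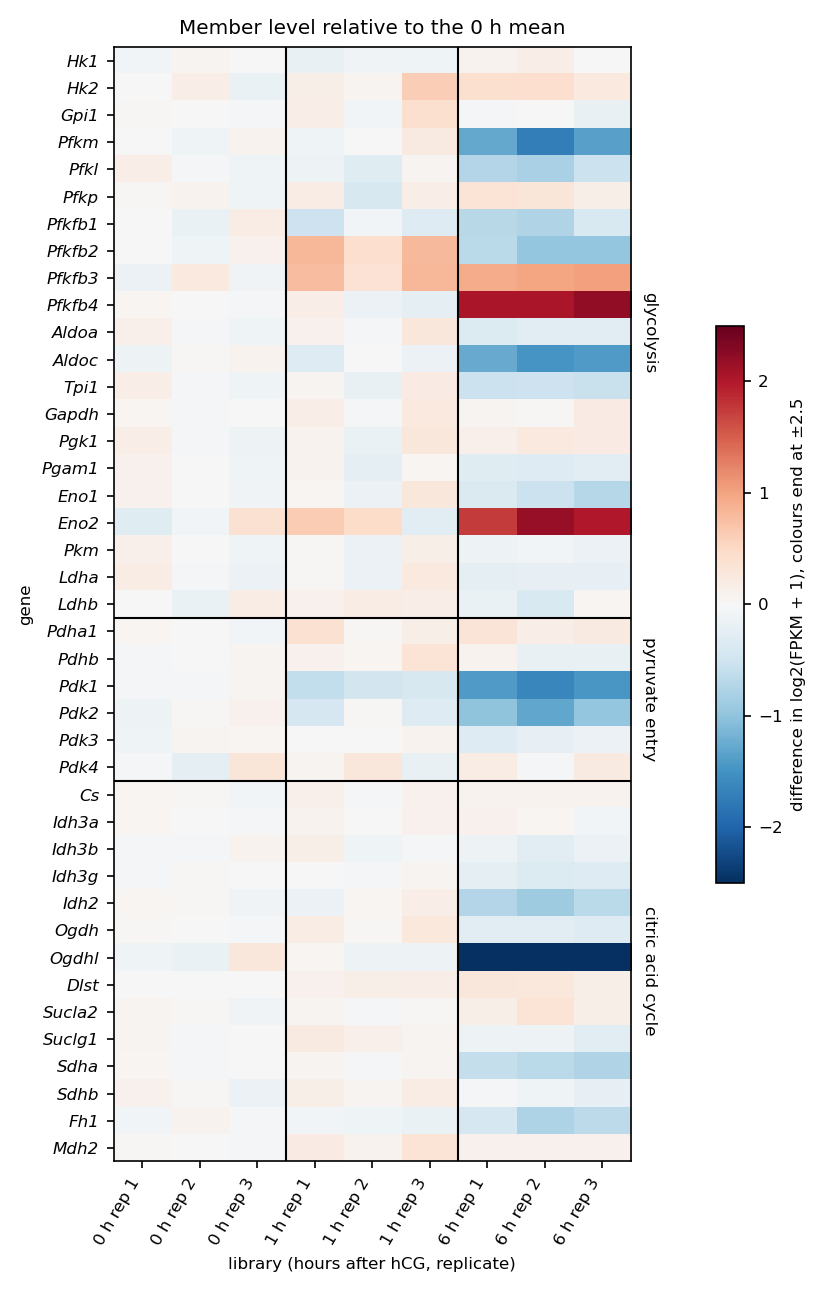
Each row is a gene and each column a library. Colour gives the difference in log2(FPKM + 1) from the gene's 0 h mean, with colours ending at 2.5 in either direction. The 3 libraries of a time look alike for most genes, the strongest colours at 6 h belong to Pfkfb4 and Eno2 (higher) and Ogdhl (lower), and most rows of the citric acid cycle are pale at 1 h.

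The 6 h libraries also differed from the earlier ones in their cell markers. Of all genes tested 28.8% were called higher and 27.9% lower at 6 h against 0 h. The summed FPKM of 10 granulosa cell markers (Fshr, Cyp19a1, Inha and others) ranged from 9161 to 9750 at 0 h, from 9521 to 14177 at 1 h and from 3845 to 4260 at 6 h, and 9 of the 10 were called lower at 6 h. The largest parts of this sum were Inha (means of 5413 FPKM at 0 h and 2940 at 6 h) and Inhba (2294 and 585). Oocyte markers summed to 44.9 to 69.9 FPKM at 0 h, 57.8 to 68.9 at 1 h and 79.7 to 118 at 6 h, and all 10 that passed the filter were called higher at 6 h. Theca and stroma markers summed to 170 to 269 FPKM at 0 h, 227 to 373 at 1 h and 85.8 to 107 at 6 h, with 3 of 9 called lower at 6 h. Most of the shift in this sum came from Cyp17a1, which averaged 123 FPKM at 0 h, 193 at 1 h and 21.9 at 6 h. Endothelial markers summed to 16.3 to 22.1 FPKM at 0 h and 22.8 to 30.0 at 6 h, with 2 of 6 called higher. Leukocyte markers summed to 12.1 to 18.6 FPKM at 0 h and 9.60 to 12.3 at 6 h, and 5 of the 8 had a mean below 1 FPKM at every time. Erythroid markers summed to 133 to 202 FPKM at 0 h and 69.5 to 133 at 6 h. Granulosa cell markers had the highest sum at every time, and no marker of these lists was at 0 in all 3 libraries of a time. The part of these shifts in the results on metabolic genes was not tested.

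Glucose enters glycolysis through hexokinase, which phosphorylates it, and glucose phosphate isomerase (Gpi1), which makes fructose 6-phosphate. Hk1 measured 13.5, 14.9 and 14.4 FPKM at 0 h, 12.3, 13.2 and 13.1 FPKM at 1 h and 15.1, 16.1 and 14.3 FPKM at 6 h in replicates 1 to 3. Its 1 h libraries lay below all others, and its 0 h and 6 h libraries overlapped. Hk1 was called only between 6 h and 1 h, by a log2 change of 0.22 ± 0.07 (SE) with an adjusted p of 0.0331, and the adjusted p passed 0.05 when 1 h replicate 1 or 3 was left out, when 6 h replicate 1 or 2 was left out and from the most abundant row alone (up to 0.759 over the 15 alternative analyses). Hk2, the hexokinase induced in many growing tissues, measured 10.8, 12.3 and 9.50 FPKM at 0 h, 12.1, 11.3 and 17.2 FPKM at 1 h and 14.6, 14.9 and 12.9 FPKM at 6 h. All 6 h libraries of Hk2 lay above all 0 h libraries, and replicate 3 at 1 h was the highest of the 9. The change at 6 h of 0.35 ± 0.15 had an adjusted p of 0.0659, which fell to 0.0498 without 0 h replicate 2, 0.017 without 1 h replicate 3 and 0.016 from the most abundant row alone. Gpi1 averaged 114 ± 3.21 FPKM at 0 h (SD, n = 3), 129 ± 21.1 FPKM at 1 h and 108 ± 7.03 FPKM at 6 h. Gpi1 was called in no comparison, although it was called without 1 h replicate 2 (adjusted p = 0.0498 at 1 h and 0.00768 between 6 h and 1 h) and after quantile normalization at 6 h (0.017).

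Phosphofructokinase, which commits the sugar to glycolysis, has 3 genes, and 2 of them fell at 6 h. Pfkm, the muscle-type subunit, measured 13.5, 12.4 and 14.3 FPKM at 0 h, 12.4, 13.3 and 15.7 FPKM at 1 h and 4.92, 3.34 and 4.58 FPKM at 6 h. The 6 h libraries lay far below the other 6, whose values overlapped between 0 and 1 h. Pfkm fell by 1.46 ± 0.13 on the log2 scale at 6 h (adjusted p = 1.15e-05). Pfkl, the liver-type subunit, fell from 30.0 ± 3.08 FPKM to 18.2 ± 1.88 FPKM (SD, n = 3), a log2 change of -0.69 ± 0.11 with an adjusted p of 0.000549. Pfkp, the platelet-type subunit, measured 26.0, 27.2 and 23.8 FPKM at 0 h, 29.2, 19.3 and 29.0 FPKM at 1 h and 32.6, 32.0 and 28.5 FPKM at 6 h. Every 6 h library of Pfkp exceeded every 0 h library, but replicate 2 at 1 h was the lowest of all, and the change at 6 h of 0.26 ± 0.14 was not called (adjusted p = 0.141). Leaving out that 1 h library brought the adjusted p to 0.0145.

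The make-up of the phosphofructokinase transcripts therefore differed between the times. Pfkl led at 0 h with 43.3% ± 2.18 of their summed FPKM (SD, n = 3), ahead of Pfkp with 37.2% ± 2.09 and Pfkm with 19.4% ± 2.02. At 6 h Pfkp led with 58.0% ± 4.15, ahead of Pfkl with 34.0% ± 3.47 and Pfkm with 7.98% ± 1.36. The sum of the 3 genes was 69.0 ± 3.65 FPKM at 0 h and 53.5 ± 1.53 FPKM at 6 h. From the most abundant row of each gene alone, Pfkp held 20.6% at 0 h, below Pfkm with 23.5%. The order of these genes at 0 h thus depends on how rows are taken. For Pfkp the row most abundant over all 9 libraries was not the most abundant at 0 h. These shares are a description without a test. Exons of Pfkm overlap Senp1 and exons of Pfkp overlap Pitrm1, both on the opposite strand, and the labels do not state whether the libraries kept strand.

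Behind the uncalled change of Pfkp its main deposited rows moved in opposite directions. The rows carry no transcript name, so what each stands for is not given. The gene (chr13:6579768-6648777, minus strand, GENCODE M21 on GRCm38) has 4 rows, of which 2 held nearly all of its FPKM. Row 1 measured 11.7, 10.9 and 10.5 FPKM at 0 h, 14.0, 10.0 and 11.7 FPKM at 1 h and 28.3, 25.6 and 26.4 FPKM at 6 h. Row 2 measured 14.3, 16.2 and 13.3 FPKM at 0 h, 15.2, 9.28 and 16.4 FPKM at 1 h and 4.23, 6.39 and 2.11 FPKM at 6 h. The 6 h libraries did not overlap the others in either row, and row 1 went from 43.1% of the gene's mean FPKM at 0 h to 86.3% at 6 h. Row 1 is the most abundant by its mean over all 9 libraries, but only through its 6 h level. At 0 h and 1 h row 2 had the higher mean (14.6 and 13.7 FPKM against 11.1 and 11.9 FPKM). From the most abundant row of each gene alone, Pfkp rose by 1.203 on the log2 scale at 6 h (adjusted p = 1.88e-05). Because the 6 h libraries decided which row was taken, this value is no separate support for a rise. Whether the division of reads between rows is accurate was not tested.

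**Figure D2:**
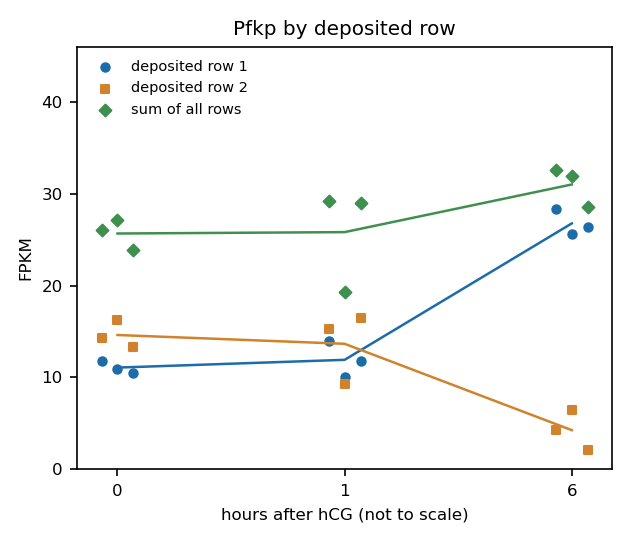
FPKM of Pfkp (vertical axis) by hours after hCG (horizontal axis, not to scale) in 3 libraries a time, for its 2 main deposited rows and for the sum of all its rows, with lines through the means. Row 1 climbs to a mean of 26.8 FPKM at 6 h while row 2 drops to 4.24 FPKM, and the sum rises much less.

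The 4 bifunctional PFKFB enzymes make and break down fructose 2,6-bisphosphate, the strongest activator of phosphofructokinase, and their genes followed different time courses. Pfkfb3, the isoform with the highest kinase to phosphatase ratio, measured 12.0, 16.03 and 12.6 FPKM at 0 h, 23.6, 17.6 and 24.5 FPKM at 1 h and 26.4, 27.7 and 28.2 FPKM at 6 h. Its 3 groups did not overlap, and both steps went up. Pfkfb3 rose by 0.65 ± 0.13 on the log2 scale at 1 h (adjusted p = 0.0103) and by 0.98 ± 0.13 at 6 h (adjusted p = 0.000185). The 1 h call was lost from the most abundant row alone, with an adjusted p of 0.1 against a range of 0.00177 to 0.1 over the 15 alternatives. Pfkfb4 measured 6.02, 5.70 and 5.65 FPKM at 0 h, 6.65, 5.10 and 4.73 FPKM at 1 h and 26.9, 27.1 and 30.4 FPKM at 6 h. The 0 and 1 h libraries overlapped, and all 6 h libraries stood apart at several times their level. Pfkfb4 rose by 2.10 ± 0.11 at 6 h (adjusted p = 4.03e-07), the largest rise among the 41 genes.

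Pfkfb2, known as the heart-type isoform, went up and then down. It measured 10.7, 9.72 and 11.5 FPKM at 0 h, 19.6, 14.5 and 19.4 FPKM at 1 h and 6.32, 4.95 and 4.91 FPKM at 6 h. None of the 3 groups overlapped, with 1 h the highest and 6 h the lowest. Pfkfb2 rose by 0.69 ± 0.13 at 1 h (adjusted p = 0.00807) and fell below its starting level by 6 h (log2 change -0.87 ± 0.13, adjusted p = 0.000388). Pfkfb1, the liver-type isoform, averaged 3.38 ± 0.521 FPKM at 0 h (SD, n = 3), and later 2.58 ± 0.570 FPKM (1 h) and 1.88 ± 0.411 FPKM (6 h). Its change at 6 h of -0.61 ± 0.16 was called (adjusted p = 0.00842), except from the most abundant row alone (0.124). Exons of Pfkfb1 overlap Apex2 and exons of Pfkfb2 overlap Yod1 on the opposite strand.

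The summed PFKFB level climbed from 33.3 ± 1.18 FPKM at 0 h to 47.8 ± 6.47 FPKM at 1 h and 62.8 ± 2.63 FPKM at 6 h. Pfkfb3 held 40.5% ± 5.33 of that sum at 0 h and 43.7% ± 1.26 at 6 h. Pfkfb4 went from 17.4% ± 1.21 to 44.7% ± 1.22 over the same time, and Pfkfb2 from 31.9% ± 3.16 to 8.61% ± 1.498. Pfkfb3 and Pfkfb4 thus stood level at 6 h, and the share of Pfkfb1 was 2.99% ± 0.518.

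**Figure D3:**
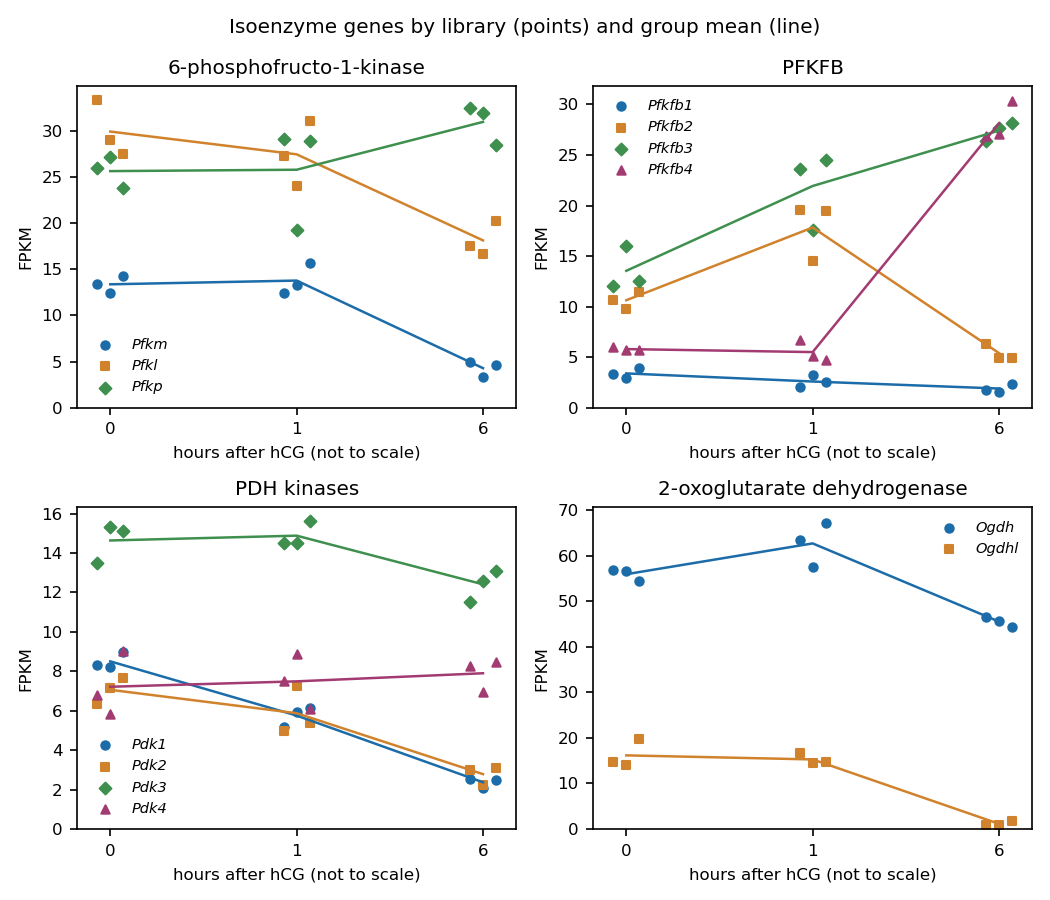
FPKM by hours after hCG (horizontal axis, not to scale) for the genes of 4 enzyme families. Points are libraries and lines join the group means of 3. Pfkfb4 and Pfkfb3 meet at 28.1 and 27.4 FPKM at 6 h, Pfkfb2 peaks at 1 h, Pdk1 drops at both steps, and Ogdhl is near 0 at 6 h beside Ogdh at 45.5 FPKM.

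The sequences before the starts of Pfkfb3 and Pfkfb4 are shown because the 2 genes reached the same level by different time courses. They come from the RefSeq promoter table (GRCm38.p6), limited to bases that GENCODE M21 places in no exon, and run 5′ to 3′ on the strand of the gene. Pfkfb3 has 2 windows. Its inner start is preceded by chr2:11502102-11502340 (minus strand, 250 to 12 bases before a start inside the gene) and its outer start by chr2:11554078-11554179 (minus strand, 250 to 149 bases before). Pfkfb4 is at chr9:108991652-108991777 (plus strand, 250 to 125 bases before its start). Capitals mark the letters ACGTG or GCGTG, the core of the hypoxia response element, and TGACG, part of the cAMP response element, on either strand.
Pfkfb3, inner start: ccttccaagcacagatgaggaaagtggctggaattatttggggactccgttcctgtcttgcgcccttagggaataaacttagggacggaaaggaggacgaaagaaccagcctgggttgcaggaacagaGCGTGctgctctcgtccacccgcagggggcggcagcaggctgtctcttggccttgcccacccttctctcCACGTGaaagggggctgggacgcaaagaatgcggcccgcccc
Pfkfb3, outer start: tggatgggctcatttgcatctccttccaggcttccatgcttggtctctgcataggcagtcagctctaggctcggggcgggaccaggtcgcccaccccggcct
Pfkfb4: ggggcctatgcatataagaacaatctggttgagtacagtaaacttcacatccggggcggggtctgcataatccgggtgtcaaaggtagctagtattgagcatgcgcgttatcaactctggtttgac
The printed stretch before the inner Pfkfb3 start holds GCGTG at base 122 before the start. It also holds ACGTG on both strands at bases 52 and 53, which together spell the E-box CACGTG. The whole 300-base window of the inner start holds 2 ACGTG, 2 GCGTG and 1 TGACG. The stretch before the outer Pfkfb3 start holds none of these letters, and its whole 300-base window holds 1 ACGTG and 2 TGACG. The printed Pfkfb4 stretch holds none of them either, and the whole 300-base Pfkfb4 window holds 1 GCGTG and 1 TGACG. These matches are letters in a window, and no binding was measured.

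The splitting of fructose 1,6-bisphosphate by aldolase and the interconversion of its products by triose phosphate isomerase (Tpi1) showed falls in abundant and scarce genes alike. Aldoa, the main aldolase and the most abundant of the 41 genes, averaged 513 ± 42.9 FPKM in the 0 h libraries (SD, n = 3), 559 ± 62.5 FPKM in the 1 h and 418 ± 12.5 FPKM in the 6 h libraries. Its change at 6 h of -0.29 ± 0.10 was called (adjusted p = 0.0253) but the call rested on replicates 1 and 2 of 0 h and of 6 h: leaving out any of these libraries gave an adjusted p of up to 0.0962. Aldoc, the brain-type aldolase, measured 6.47, 7.31 and 7.70 FPKM at 0 h, 5.54, 7.05 and 6.31 FPKM at 1 h and 2.40, 1.94 and 2.04 FPKM at 6 h. Its 6 h libraries lay well below the other 6, a log2 change of -1.38 ± 0.11 (adjusted p = 6.59e-06). Aldoc made up 1.39% ± 0.228 of the summed FPKM of Aldoa and Aldoc at 0 h and 0.508% ± 0.0735 at 6 h. Tpi1 fell from 192 ± 20.8 FPKM to 132 ± 2.01 FPKM, a log2 change of -0.53 ± 0.11 (adjusted p = 0.00185).

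The 2 enzymes that follow, which oxidize glyceraldehyde 3-phosphate and make the first ATP, were not called at any time. Gapdh, the glyceraldehyde 3-phosphate dehydrogenase, measured 312, 291 and 301 FPKM at 0 h, 339, 289.9 and 359 FPKM at 1 h and 316, 309 and 348 FPKM at 6 h. The groups overlapped throughout, and the change at 6 h was 0.10 ± 0.09 (adjusted p = 0.343). Pgk1, phosphoglycerate kinase, averaged 123 ± 13.4 FPKM at 0 h and 139 ± 5.34 FPKM at 6 h, a change of 0.19 ± 0.11 (adjusted p = 0.18). Gapdh has many near-identical pseudogenes and its exons overlap Iffo1, so reads may be divided among them in a way the tables do not show. Pgam1, phosphoglycerate mutase, fell from 188 ± 14.3 FPKM to 152 ± 2.93 FPKM (log2 change -0.30 ± 0.09, adjusted p = 0.0172), a call lost on leaving out replicate 1 of 0 h or replicate 2 of 6 h (adjusted p of up to 0.0673).

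Enolase makes phosphoenolpyruvate, and its genes Eno1 and Eno2 changed in opposite directions at 6 h. Eno1, the common form, fell from 303 ± 21.3 FPKM at 0 h to 209 ± 24.7 FPKM at 6 h (SD, n = 3), a log2 change of -0.53 ± 0.12 (adjusted p = 0.00405). Eno2, the neuron-type form, measured 0.772, 1.09 and 1.86 FPKM at 0 h, 2.39, 2.01 and 0.805 FPKM at 1 h and 6.38, 8.88 and 7.74 FPKM at 6 h. The 6 h libraries lay above the other 6, which overlapped with each other and included 2 below 1 FPKM. Eno2 rose by 1.97 ± 0.25 at 6 h (adjusted p = 0.000116), a value that ran from 1.19 (most abundant row alone) to 2.60 (pseudocount of 0.1 FPKM) over the 15 alternatives. Eno2 was 0.417% ± 0.213 of the summed FPKM of Eno1 and Eno2 at 0 h and 3.59% ± 0.806 at 6 h. The muscle-type gene Eno3, outside the 41 genes and outside that sum, and added after its values were seen, averaged 4.81 ± 2.21 FPKM at 0 h, 6.20 ± 1.17 FPKM at 1 h and 3.04 ± 0.891 FPKM at 6 h. It was not called at 6 h against 0 h (log2 change -0.48 ± 0.26, adjusted p = 0.143) and was called lower between 6 h and 1 h (-0.84 ± 0.26, adjusted p = 0.0208). The stretch before its start, at chr6:124769674-124769862 (minus strand, RefSeq, GRCm38.p6, 189 bases to 1 base before the start), is shown because Eno2 had the second-largest rise among the 41 genes. It has none of the letters defined above and so no capitals.
Eno2: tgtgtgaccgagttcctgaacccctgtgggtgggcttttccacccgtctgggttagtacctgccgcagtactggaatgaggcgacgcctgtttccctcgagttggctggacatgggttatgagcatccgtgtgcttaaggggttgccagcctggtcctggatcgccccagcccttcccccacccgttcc

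The genes of the last steps, from phosphoenolpyruvate to pyruvate and lactate, were not called at 6 h against 0 h. Pkm, pyruvate kinase, measured 296, 269 and 252 FPKM at 0 h, 279, 246 and 299 FPKM at 1 h and 248, 258 and 246 FPKM at 6 h. Its libraries overlapped between all times, and the change at 6 h was -0.12 ± 0.09 (adjusted p = 0.28). Ldha, the lactate dehydrogenase subunit that favours lactate formation, measured 325, 275 and 257 FPKM at 0 h, 290.2, 257 and 335 FPKM at 1 h and 244, 247 and 246 FPKM at 6 h. All 6 h libraries of Ldha were below all others, yet the change of -0.21 ± 0.11 was not called (adjusted p = 0.129). Ldhb, the subunit that favours pyruvate formation, measured 77.5, 69.2 and 88.5 FPKM at 0 h, 83.7, 88.7 and 87.1 FPKM at 1 h and 69.4, 59.995 and 81.2 FPKM at 6 h. The 0 and 6 h libraries of Ldhb overlapped, while all 6 h libraries were below the 1 h ones. Ldhb was called only between 6 h and 1 h (-0.31 ± 0.11, adjusted p = 0.0453). That call was lost in 9 of the 15 alternatives, among them leaving out replicate 1 of 0 h, any 1 h library, or replicate 1 or 2 of 6 h, with an adjusted p of up to 0.169. Ldha made up 78.3% ± 3.45 of the summed FPKM of Ldha and Ldhb at 0 h and 77.8% ± 2.63 at 6 h.

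Calls for Pkm and Ldha at 6 h depended on how libraries were scaled. The deposited FPKM summed to 493222 ± 1980 per library at 0 h (SD, n = 3), with 551992 ± 22575 for 1 h and 526831 ± 12949 for 6 h. With each library scaled to the mean sum, Pkm changed by -0.21 (adjusted p = 0.0275) and Ldha by -0.30 (adjusted p = 0.019) at 6 h. After quantile normalization the values were -0.30 (adjusted p = 0.00164) for Pkm and -0.40 (adjusted p = 0.000847) for Ldha. At 1 h Pkm turned from 0.01 as deposited to -0.26 after quantile normalization (adjusted p = 0.0147).

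Pyruvate enters the cycle through the pyruvate dehydrogenase complex, which PDH kinases switch off by phosphorylation. Neither of its measured subunit genes was called at 6 h against 0 h. Pdha1 averaged 15.4 ± 0.632 FPKM at 0 h and 18.3 ± 1.13 FPKM at 6 h (SD, n = 3), with all 6 h libraries above all 0 h libraries and an uncalled change of 0.24 ± 0.10 (adjusted p = 0.0558). Its adjusted p was 0.0279 without 1 h replicate 1, 0.0359 without 1 h replicate 2 and 0.036 with the replicate number as a block. Pdhb averaged 45.6 ± 1.88 FPKM at 0 h, 51.4 ± 5.62 FPKM at 1 h and 42.6 ± 4.88 FPKM at 6 h. It was called lower only between 6 h and 1 h, with overlapping libraries (-0.27 ± 0.10, adjusted p = 0.0421), and 11 of the 15 alternatives lost that call, including all that left out a library except 1 h replicate 2 and 6 h replicate 1 (adjusted p of up to 0.142).

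Of the 4 PDH kinase genes, 3 were lower at 6 h and none was called higher. Pdk1 measured 8.29, 8.24 and 8.98 FPKM at 0 h, 5.17, 5.95 and 6.15 FPKM at 1 h and 2.56, 2.08 and 2.48 FPKM at 6 h. The 3 groups did not overlap and each was lower than the one before. Pdk1 was called lower at 1 h (log2 change -0.49 ± 0.10, adjusted p = 0.0107) and at 6 h (-1.497 ± 0.10, adjusted p = 1.84e-06), and every alternative kept both calls. Pdk2 measured 6.35, 7.18 and 7.66 FPKM at 0 h, 4.99, 7.23 and 5.40 FPKM at 1 h and 3.00, 2.25 and 3.10 FPKM at 6 h. Its 0 and 1 h libraries overlapped and its 6 h libraries lay below both, with a log2 change of -1.09 ± 0.14 at 6 h (adjusted p = 0.000146). Pdk3 averaged 14.6 ± 1.01 FPKM at 0 h and 12.4 ± 0.802 FPKM at 6 h, and its change of -0.22 ± 0.08 (adjusted p = 0.0389) lost the call on leaving out any of 5 libraries, replicates 2 and 3 of 0 h, replicate 1 of 1 h and replicates 1 and 2 of 6 h (adjusted p of up to 0.129). Pdk4, the kinase induced by fasting in other tissues, measured 6.79, 5.85 and 9.01 FPKM at 0 h, 7.49, 8.88 and 6.11 FPKM at 1 h and 8.28, 6.97 and 8.45 FPKM at 6 h. Its groups overlapped at all times, with a change of 0.13 ± 0.16 at 6 h (adjusted p = 0.52).

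The summed FPKM of the 4 kinases went from 37.4 ± 3.02 at 0 h to 34.0 ± 2.28 at 1 h and 25.5 ± 1.63 at 6 h. Pdk1 held 22.8% ± 0.888 of the sum at 0 h and 9.31% ± 0.712 at 6 h. The share of Pdk2 went from 18.9% ± 0.719 to 10.9% ± 1.28. Pdk3 led at both times, with 39.2% ± 2.42 and 48.8% ± 3.66, and Pdk4 held 19.2% ± 3.05 and then 31.0% ± 1.74.

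In the citric acid cycle none of the 14 genes was called at 1 h by limma, and 3 had an unadjusted p below 0.05 (Ogdh, Dlst and Mdh2, all higher). Among all 14535 genes tested, 4489 had an unadjusted p below 0.05 at 1 h and 15.7% were called. The 3 cycle genes thus do not exceed the background. Ogdh (adjusted p = 0.0357) and Mdh2 (adjusted p = 0.0182) were called higher at 1 h without 1 h replicate 2. At 6 h 9 of the 14 were called (64.3%), 7 lower and 2 higher, beside 56.6% of all genes tested (27.9% lower and 28.8% higher). Median change among the 14 was 0.05 at 1 h and -0.19 at 6 h. Citrate synthase (Cs), which opens the cycle, measured 61.4, 60.8 and 56.5 FPKM at 0 h, 65.4, 58.0 and 64.6 FPKM at 1 h and 63.4, 63.3 and 63.3 FPKM at 6 h. Its 6 h libraries were just above all 0 h libraries and within the 1 h range, and the change of 0.09 ± 0.06 was not called (adjusted p = 0.272).

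NAD-dependent isocitrate dehydrogenase has a catalytic alpha subunit and regulatory beta and gamma subunits. The alpha gene Idh3a measured 28.5, 27.1 and 26.5 FPKM at 0 h, 29.3, 27.5 and 29.6 FPKM at 1 h and 29.7, 28.4 and 26.2 FPKM at 6 h. The groups overlapped, with a change of 0.04 ± 0.07 at 6 h (adjusted p = 0.669). The gamma gene Idh3g fell from 47.4 ± 1.06 FPKM to 38.3 ± 1.43 FPKM (SD, n = 3; log2 change -0.30 ± 0.06, adjusted p = 0.00138). The beta gene Idh3b averaged 41.9 ± 2.11 FPKM at 0 h and 36.8 ± 2.20 FPKM at 6 h, with no overlap and an uncalled change of -0.18 ± 0.08 (adjusted p = 0.0771). It was called lower after scaling to the mean sum (adjusted p = 0.0153) and after quantile normalization (adjusted p = 0.00693). Exons of Idh3b overlap Nop56, a gene at a mean of 70.6 FPKM, on the opposite strand. Idh2, the NADP-dependent mitochondrial enzyme, fell from 41.02 ± 2.19 FPKM to 23.8 ± 1.94 FPKM (log2 change -0.76 ± 0.09, adjusted p = 9.06e-05).

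The 2-oxoglutarate dehydrogenase step held the largest fall among the 41 genes. Ogdhl, which codes for a relative of the E1 subunit Ogdh, measured 14.7, 14.0 and 19.8 FPKM at 0 h, 16.6, 14.6 and 14.6 FPKM at 1 h and 0.936, 0.834 and 1.70 FPKM at 6 h. The 0 and 1 h libraries overlapped, and the 6 h libraries were close to the filter minimum of 1 FPKM. Ogdhl changed by -3.00 ± 0.17 on the log2 scale at 6 h (adjusted p = 4.98e-07), with a range of -3.74 to -2.85 over the 15 alternatives. Ogdh itself fell from 55.9 ± 1.29 FPKM to 45.5 ± 1.15 FPKM (log2 change -0.29 ± 0.07, adjusted p = 0.0043). Ogdhl made up 22.4% ± 3.73 of the FPKM of the pair at 0 h and 2.48% ± 1.05 at 6 h, a share computed after its values were seen. Dlst, the E2 subunit of the same complex, rose from 37.1 ± 0.418 FPKM to 43.7 ± 2.07 FPKM (0.23 ± 0.06, adjusted p = 0.00698). The call for Dlst was lost after scaling to the mean sum and after quantile normalization, with an adjusted p of up to 0.153.

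The stretch before the start of Ogdhl, at chr14:32321769-32322018 (plus strand, RefSeq, GRCm38.p6, 250 bases to 1 base before the start), is shown because Ogdhl had the largest change of the 41 genes. Capitals mark the same letters as above.
Ogdhl: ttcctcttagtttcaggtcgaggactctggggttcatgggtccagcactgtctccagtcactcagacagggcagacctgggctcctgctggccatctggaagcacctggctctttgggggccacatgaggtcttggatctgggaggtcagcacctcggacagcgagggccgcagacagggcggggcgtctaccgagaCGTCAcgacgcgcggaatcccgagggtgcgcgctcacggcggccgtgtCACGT
It holds TGACG on the reverse strand at base 53 before the start and ACGTG on the reverse strand at base 5.

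Succinyl-CoA ligase, succinate dehydrogenase and fumarase follow in the cycle. Sucla2, the ATP-forming ligase subunit, averaged 30.7 ± 1.65 FPKM at 0 h and 35.7 ± 2.85 FPKM at 6 h, and Suclg1, the subunit shared by the ATP- and GTP-forming ligases, 43.7 ± 1.77 FPKM and 38.3 ± 2.42 FPKM (SD, n = 3). Both were called at 6 h (0.21 ± 0.07 with adjusted p = 0.035, and -0.19 ± 0.07 with adjusted p = 0.0433). The Sucla2 call was lost in 6 of the 15 alternatives, among them leaving out replicate 2 or 3 of 0 h, or replicate 2 of 6 h (adjusted p of up to 0.307). The Suclg1 call was lost in 7, namely from the most abundant row alone and without any 0 h or 6 h library (adjusted p of up to 0.146). Sdha, the flavoprotein subunit of succinate dehydrogenase, fell from 69.6 ± 2.59 FPKM to 43.4 ± 2.43 FPKM (log2 change -0.67 ± 0.06, adjusted p = 1.66e-05). Its iron-sulfur partner Sdhb averaged 49.8 ± 4.56 FPKM and 45.7 ± 2.44 FPKM, an uncalled change of -0.12 ± 0.08 (adjusted p = 0.219) that was called after scaling to the mean sum (0.036) and after quantile normalization (0.0131). Fh1, fumarase, fell from 53.0 ± 3.26 FPKM to 34.4 ± 4.54 FPKM (log2 change -0.61 ± 0.09, adjusted p = 0.000305). Mdh2, the malate dehydrogenase that closes the cycle, averaged 120 ± 2.86 FPKM at 0 h, 139 ± 12.8 FPKM at 1 h and 129 ± 0.317 FPKM at 6 h and was not called at 6 h (0.11 ± 0.07, adjusted p = 0.223).

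**Figure D4:**
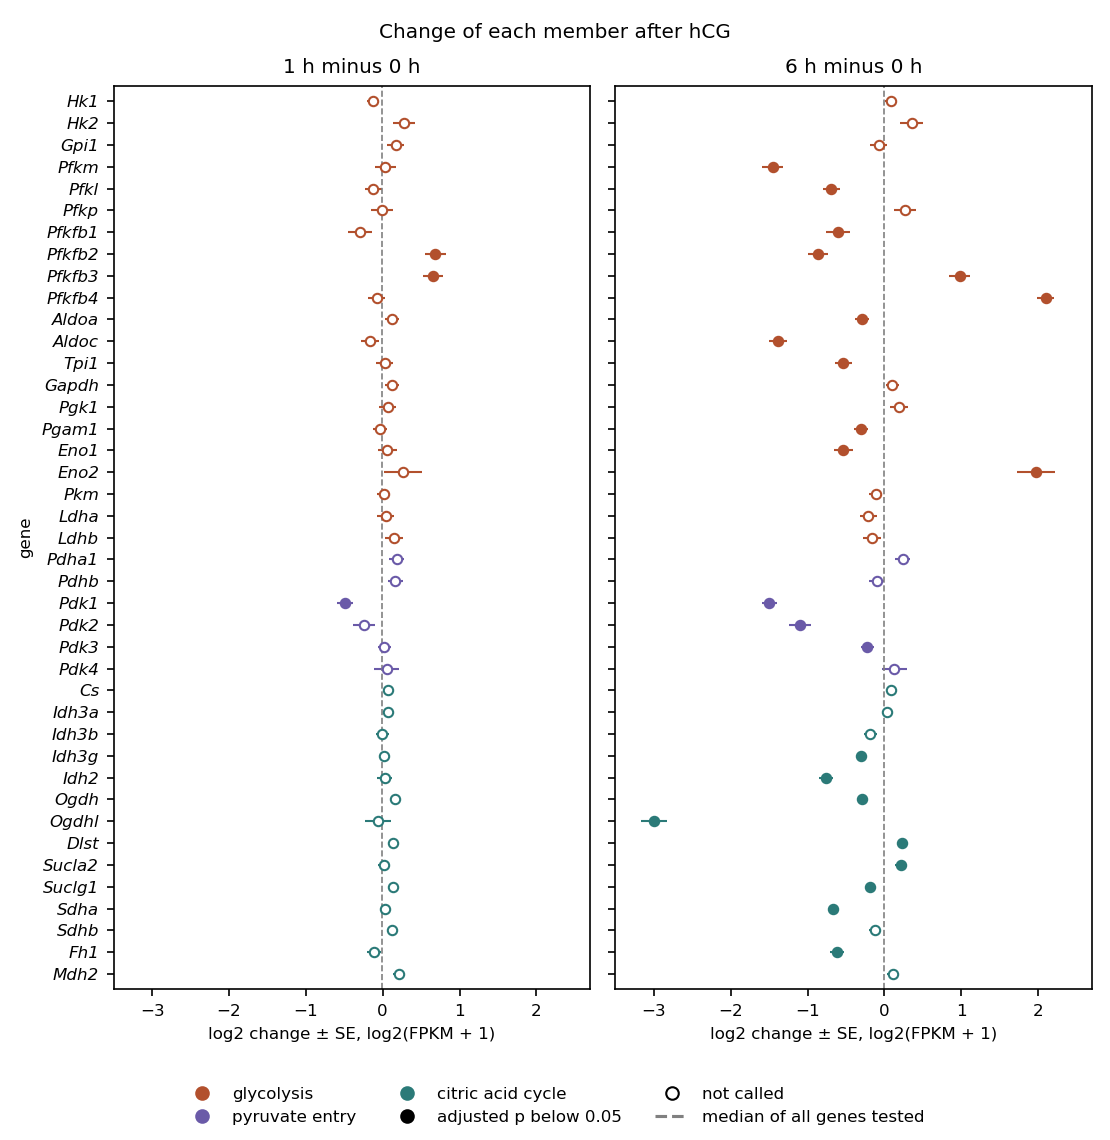
Log2 change of each of the 41 genes (horizontal axis, differences in log2(FPKM + 1), bars are SE) at 1 h and at 6 h against 0 h. Filled points have an adjusted p below 0.05, and the dashed line is the median of all genes tested. Glycolysis spreads from -1.46 to 2.10 at 6 h, while the cycle genes other than Ogdhl lie between -0.76 and 0.23.

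Set side by side, the summed FPKM of the 2 pathways moved in parallel. The 21 glycolysis genes summed to 2505 ± 178 FPKM at 0 h (SD, n = 3), with 2648 ± 310.3 FPKM for 1 h and 2205 ± 6.70 FPKM for 6 h. The 14 cycle genes summed to 693 ± 12.3 FPKM, 734 ± 30.7 FPKM and 607 ± 15.8 FPKM at these times. Glycolysis was 3.61 ± 0.197 times the cycle at 0 h, 3.5997 ± 0.278 times at 1 h and 3.63 ± 0.105 times at 6 h, so these means differed by less than the spread between libraries. The glycolysis sum is carried mostly by abundant genes such as Aldoa (513 FPKM at 0 h), Eno1 (303) and Gapdh (302). The ratio therefore says little about the scarcer genes. Within the 1 h group, replicate 2 had the lowest sums, 2329 FPKM for glycolysis and 699.9 FPKM for the cycle, and replicate 3 the highest, 2949 and 759 FPKM. The 6 pyruvate entry genes summed to 98.4 ± 4.27 FPKM, 103 ± 4.52 FPKM and 86.4 ± 6.21 FPKM.

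In counts of calls both pathways pointed mainly down at 6 h. At 6 h against 0 h, 12 of 21 glycolysis genes were called (3 higher, 9 lower), 3 of 6 pyruvate entry genes (all lower) and 9 of 14 cycle genes (2 higher, 7 lower). These are 57.1%, 50% and 64.3% of the blocks, near the 56.6% called over all genes tested (28.8% higher, 27.9% lower). Median log2 changes were -0.16, -0.16 and -0.19 in that order, beside -0.0041 over all genes tested. Median absolute change was 0.35 for glycolysis, 0.22 for the cycle and 0.38 over all genes tested. Whether the pathways differ in these counts or medians was not tested. At 1 h the medians were 0.04 for glycolysis, 0.04 for pyruvate entry and 0.05 for the cycle, and with libraries scaled to the mean sum all 3 were -0.11 while the median of all genes shifted from -0.0046 to -0.14.

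Between 6 h and 1 h, a comparison that shares its 6 h libraries with the one above, 24 of the 41 genes were called, 3 higher and 21 lower. Over all genes tested 53.5% were called, 26.7% higher and 26.9% lower. The 6 h libraries all lay above the 1 h libraries for 5 of the 41 genes (30.5% of all genes tested) and below for 22 (30%). Eno2 and Pfkfb4 were higher (log2 changes of 1.70 ± 0.25 and 2.18 ± 0.11), as was Hk1, and Pfkfb2 had the largest fall of the glycolysis genes (log2 change -1.55 ± 0.13, adjusted p = 1.06e-05). Pfkfb3 stood higher than at 1 h in every library but was not called (0.32 ± 0.13, adjusted p = 0.0668), and its adjusted p was 0.0445 without 0 h replicate 2, 0.0439 without 1 h replicate 3 and 0.0215 after scaling to the mean sum. Sdhb was called lower in this comparison (-0.25 ± 0.08, adjusted p = 0.0226), except on leaving out replicate 1 or 3 of 1 h, on leaving out replicate 2 or 3 of 6 h, and after scaling to the mean sum (adjusted p of up to 0.0767).

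Genes around the pathway were taken from lists of transporters and related enzymes. Their counts at 6 h, here and below, stand beside 28.8% of all genes tested called higher and 27.9% called lower. Of 5 tested carriers of lactate and pyruvate, 4 fell and none rose at 6 h. Slc16a1, the monocarboxylate carrier MCT1, went from 68.1 ± 5.55 FPKM at 0 h to 97.5 ± 17.6 FPKM at 1 h and 20.5 ± 1.28 FPKM at 6 h (log2 change -1.68 ± 0.12 at 6 h, adjusted p = 3.19e-06). Slc16a3, the lactate exporter MCT4, changed by -1.07 ± 0.18 on that scale, and Mpc1, a subunit of the mitochondrial pyruvate carrier, by -0.55 ± 0.16. Of 4 tested glucose transporters, Slc2a1 (GLUT1) rose from 17.2 ± 0.518 FPKM to 30.9 ± 1.96 FPKM (0.81 ± 0.12, adjusted p = 0.000274), and Slc2a8 and Slc2a10 fell.

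Among other glycolysis genes at 6 h, Bpgm, which makes 2,3-bisphosphoglycerate, rose by 0.54 ± 0.16 on the log2 scale (adjusted p = 0.0145), and Adpgk, an ADP-dependent glucokinase, changed by -0.83 ± 0.08 (adjusted p = 2.59e-05). Among other cycle genes Suclg2, a subunit of the GTP-forming succinyl-CoA ligase, changed by -0.72 ± 0.08 (adjusted p = 5.2e-05) and Aco1, the cytosolic aconitase, by -0.53 ± 0.08 (adjusted p = 0.000221). Of 6 other genes of the pyruvate dehydrogenase complex and its phosphatases, Pdpr fell (-0.65) and none rose.

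Genes at the branch points of the cycle went both ways at 6 h. In that comparison 28.8% of all genes tested were called higher and 27.9% lower. Among 8 tested genes of anaplerosis and gluconeogenesis 2 rose and 5 fell. Acly, ATP citrate lyase, which makes cytosolic acetyl-CoA from citrate, rose from 103 ± 13.98 FPKM at 0 h to 179 ± 5.77 FPKM at 1 h and 318 ± 18.8 FPKM at 6 h (1.63 ± 0.10 at 6 h, adjusted p = 6.9e-07). The mitochondrial malic enzymes Me3 and Me2 changed by -1.84 ± 0.16 and -1.29 ± 0.11. Of 9 pentose phosphate pathway genes 1 rose (H6pd, 0.76) and 4 fell (Pgls most, -0.79). Of 11 tested genes of glycogen and hexose handling 4 rose and 3 fell, with Ugdh (1.84) and Gfpt2 (1.67), which make precursors of hyaluronan, the highest. Of 13 tested genes of the hypoxia-inducible factor (HIF) pathway 9 rose and 2 fell at 6 h. The largest rises were those of Egln3 (2.95), a HIF prolyl hydroxylase, and Epas1 (1.19), which codes for HIF-2alpha. Bnip3 (-0.81) and Myc (-0.63) fell. Egln3 averaged 22.7 FPKM at 1 h and was called lower between 6 h and 1 h (-0.78, adjusted p = 0.00148). HIF activity was not measured.

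Short motifs were counted in the 300-base RefSeq windows, from 250 bases before to 50 bases after each start, which matched 40 of the 41 genes (64 windows, several of them overlapping starts of the same gene). ACGTG on either strand was in 28 of the 64 windows, 43.8%, beside 19.6% of all 32851 windows in the table. ACGTG or GCGTG was in 75% of them beside 43.8% of all. TGACG was in 35.9% of the windows beside 20.8% of all, and in 66.7% of the 18 cycle windows against 21.1% of the 38 glycolysis windows. The full cAMP response element TGACGTCA was in 4 of the 18 cycle windows, 3 of which are overlapping windows of Ogdh, beside 1.79% of all windows. These are letter counts that also depend on base composition, and no binding was measured. Idh3a had no entry in the table.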

How the data were processed

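RNA from granulosa cells was measured by RNA-seq in 9 libraries (TruSeq, total RNA, per the labels' protocols). FPKM values were deposited by the authors, 1 table per library with 54759 rows. Reads were aligned with HISAT2 2.0.5 and mm10 is the build named, per the submitters' processing notes. The program and annotation behind the FPKM, strandedness and read depth were not given in the sources used here, so depth is unknown and no counting interval is given. Rows were summed per gene identifier. Genes with at least 1 FPKM in 3 or more libraries (14535 of 25059) were tested with limma 3.58.1 (trended, R 4.3.3) on log2(FPKM + 1), with all 9 libraries in 1 fit of 3 group means (6 residual degrees of freedom) and Benjamini-Hochberg adjustment over all genes tested. The pseudocount understates changes of low genes. The procedure was also run on simulated data with independent noise for each gene, few changed genes and no difference in scale between libraries. The real data differ in these points, so the simulation does not bear on how libraries are scaled.

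All 41 genes are accounted for. Values in every library are given for genes called with an absolute log2 change of at least 1 and for Hk1, Hk2, Pfkp, Pfkfb3, Gapdh, Pkm, Ldha, Ldhb, Pdk4, Cs and Idh3a. Of each other list, up to 3 called genes with the largest change are named. A few genes of these lists are not reported here. The members and lists were chosen with earlier results of these data known. The 15 alternatives were a pseudocount of 0.1 FPKM, no filter, scaling to the mean FPKM sum, quantile normalization, the most abundant row of each gene, a replicate block and leaving out each of the 9 libraries. The most abundant row of a gene is the one with the highest mean over all 9 libraries. Positions are from GENCODE M21 (GRCm38).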

Additional observations from a re-analysis of the deposited data

How the results depend on the processing

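Of 51 calls of members over the 3 comparisons, 40 to 51 were kept under each of the 15 alternatives, fewest without 6 h replicate 2 and all with a pseudocount of 0.1 FPKM. Pfkfb4, Eno2, Ogdhl, Pdk1, Pdk2, Pfkm, Pfkl, Aldoc and Pfkfb2 kept every call they had, as did Eno1, Tpi1, Idh2, Idh3g, Ogdh and Sdha. With libraries scaled to the mean FPKM sum, 1 glycolysis gene was called lower at 1 h, no cycle gene was called higher at 6 h against 0 h (0), and between 6 h and 1 h 5 glycolysis genes and 1 cycle gene were called higher and 2 pyruvate entry genes lower. Medians under this scaling were -0.11 for glycolysis, -0.11 for pyruvate entry and -0.11 for the cycle at 1 h, -0.25 for pyruvate entry and -0.28 for the cycle at 6 h, and -0.22 for the cycle between 6 h and 1 h. All genes called at 1 h went from 1407 higher and 869 lower to 1002 higher and 2634 lower. After quantile normalization 2 glycolysis genes were called lower at 1 h, 0 cycle genes higher at 6 h against 0 h and 1 higher between 6 h and 1 h. Medians were then -0.13 for glycolysis and -0.11 for the cycle at 1 h, and -0.32 for glycolysis, -0.26 for pyruvate entry and -0.32 for the cycle at 6 h. Pkm at 1 h reversed under quantile normalization, to -0.26. From the most abundant row of each gene, 1 glycolysis gene was called higher at 1 h, and 5 glycolysis genes and 1 cycle gene at 6 h. Family shares from that row were 23.5% for Pfkm, 20.6% for Pfkp, 24.2% for Pfkfb2, 26.0% for Pfkfb4 and 58.9% for Hk2 at 0 h, and 6.04% for Pfkfb2, 56.1% for Pfkfb4 and 67.5% for Hk2 at 6 h. In each case the cause was not tested.

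Leaving out each library in turn, 0 to 2 cycle genes were called higher at 1 h (2 without 1 h replicate 2), 0 to 1 pyruvate entry genes higher at 6 h (1 without 1 h replicate 1 or 2), 1 to 2 cycle genes higher at 6 h (1 without 0 h replicate 2 or 3 or 6 h replicate 2) and 2 to 4 pyruvate entry genes lower between 6 h and 1 h (2 without 1 h replicate 1 or 3 or 6 h replicate 2).

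Libraries with the same replicate number deviated together only weakly, with correlations of -0.078 to 0.147 over 9 pairs. For 18 pairs of different numbers the correlations were -0.151 to 0.086. Deviations were taken from group means of 3 libraries, so these values cannot decide whether the numbers pair the libraries. With the replicate number as a block, 1 pyruvate entry gene (Pdha1) was called higher at 6 h, the Pdhb call between 6 h and 1 h was lost, and the other 50 of 51 calls were kept. Genes near the filter minimum are limited most by signal, Eno2 at 0 and 1 h and Ogdhl at 6 h among them.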
